A study of Arabidopsis thaliana with 7 samples.

Results

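The plastid genome of Arabidopsis thaliana was represented by the 88 loci whose identifiers begin with ATCG, out of 27655 genes counted in each library. They were compared in 7 RNA-seq libraries from whole seedlings, 2 of wild type (WT), 3 of hot3-2 and 2 of hot3-3. All plants were of the Col-0 ecotype, were 18 days old and had grown at 23°C under 16 h of light and 8 h of dark. hot3-2 is a SALK and hot3-3 a SAIL T-DNA insertion in HOT3 (AT1G76810), the nuclear gene for eIF5B1, a GTPase that joins the ribosomal subunits at the start codon, and both insertions are carried by every cell of the plant. No treatment was applied to any group. The questions were what share of each library came from the plastid genome and whether its gene classes kept their proportions when this cytosolic translation factor was disrupted.

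The plastid genome keeps genes for core subunits of the photosynthetic complexes, for part of the plastid ribosome and for a bacterial-type RNA polymerase. This polymerase is made of the products of rpoA, rpoB, rpoC1 and rpoC2 and is directed to promoters by nuclear-encoded sigma factors. A phage-type polymerase encoded in the nucleus transcribes a second, partly overlapping set of plastid genes, among them the rpoB operon itself. Most plastid transcripts are made as long units that are cut into pieces, and nuclear-encoded RNA-binding proteins shield their ends. Unlike the tails of cytosolic mRNA, the short A-rich tails added in plastids mark RNA for decay by exonucleases. The libraries were made from 4 µg of total RNA by selection for polyadenylated RNA. Such selection favours plastid RNA that carried a tail or an internal run of A, and how much was carried over without either is not known. The amount of plastid RNA and the share of it that was captured cannot be told apart.

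Because capture can depend on runs of A, the bases that follow the loci were examined in the RefSeq TAIR10.1 plastid sequence of 154478 bases. Of the 86 loci matched to it, 4 (4.651%) had a run of at least 10 A within 100 bases past the end of the coding sequence. They were psbM, ndhC, rps4 and ndhD. The windows of 30 bases below hold these runs and, for comparison, the longest run behind rbcL, and each is written 5′ to 3′ on the coding strand with the longest run of A in capitals.
psbM: ttactatcAAAAAAAAAAAAAgatttcaat
ndhC: acaataatAAAAAAAAAAAAAgtaaaaaaa
rps4: aacttaagtAAAAAAAAAAAttactaaaaa
ndhD: ttttcaggAAAAAAAAAAgcattaaagtga
rbcL: cttttttttactAAAAAAgattgagccgag
The windows lie on the plastid chromosome at 28664 to 28693 (psbM), 49950 to 49979 (ndhC), 45186 to 45215 (rps4), 115635 to 115664 (ndhD) and 56456 to 56485 (rbcL), the last on the plus strand and the others on the minus strand. The run began 21 bases past the coding end for psbM and 29 bases past it for ndhC, the loci with the most negative log2 fold changes in both alleles (described below). The other 2 loci with such a run changed by less than 2-fold in both alleles, with log2 fold changes of 0.03 in hot3-2 and -0.69 in hot3-3 for rps4 and of 0.51 and 0.25 for ndhD. Within the coding sequence, 7 loci had a run of 10 to 14 A, namely rpoA, rpoC2, accD, ycf1.2, rpoB, atpB and ycf1.1. Their log2 fold changes ran from -0.32 (atpB) to 0.72 (rpoC2) in hot3-2 and from -0.88 (atpB) to 0.43 (rpoC2) in hot3-3. A run of A is a description of these letters and does not show where RNA was captured.

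Library totals ranged from 14090881 to 34696683 counted read pairs, and no pair of replicates agreed within sampling noise. Nothing in the labels says that replicates came from separate cultures, so p-values measure the spread between these libraries. Both green shoot and root tissue were present in every library, since none of 8 nuclear markers of each was at 0. The summed level of the root markers was 1283 and 1377 CPM (the count scaled to the TMM-adjusted library total) for WT, 1974 to 2448 CPM for hot3-2 and 2224 and 2336 CPM for hot3-3. That of the green shoot markers was 30311 and 31172 CPM for WT, 24231 to 25078 CPM for hot3-2 and 22096 and 23237 CPM for hot3-3. The root sum was higher and the green sum lower in every mutant library, and the plastid share described next was lower too, but the markers did not move as one. Most of the root sum came from PYK10, a glucosidase of the root endoplasmic reticulum. Of the 8 root markers 3 were called higher in hot3-2 and 4 in hot3-3 (adjusted p below 0.05), against 26.2% and 27.0% of all genes. Their log2 fold changes ran from -0.00 and -0.02 for SHR to 5.81 and 4.91 for NRT2.1, which had 2 and 1 counts in the WT libraries. Of the 8 green markers 4 were lower in hot3-2 and 5 in hot3-3, against 23.1% and 24.1% of all genes, whereas LHCB2.1 and CAB3 did not pass. LHCB1.1, a light-harvesting protein, was higher in both (log2 fold changes 1.07 and 1.08, adjusted p = 0.00859 and 0.0111, quasi-likelihood test of edgeR). Its WT libraries lay far apart, at 664 and 1506 CPM, against 2197 to 2362 CPM for hot3-2 and 2290 and 2307 CPM for hot3-3. The part of these cells in the plastid share was not tested. Fewer green cells and less plastid RNA per cell cannot be told apart in whole seedlings. HOT3 itself was at 171 and 169 CPM for WT, 77.7 to 97.3 CPM for hot3-2 and 195 and 271 CPM for hot3-3, so the count of the gene gives no check of the hot3-3 label.

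The share of each library that came from plastid loci was lower in hot3-2 than in WT and lower again in hot3-3. It was 0.466% (95% Wilson interval 0.462 to 0.469) and 0.473% (0.470 to 0.476) in WT. In hot3-2 it was 0.414%, 0.401% and 0.428%, and in hot3-3 it was 0.285% and 0.308%. The 3 groups did not overlap. The means were 0.469% ± 0.00518 (SD, n = 2), 0.414% ± 0.0133 (SD, n = 3) and 0.297% ± 0.0164 (SD, n = 2), so that hot3-2 held 88.2% and hot3-3 63.2% of the WT share. Intervals cover counting error only. The 122 mitochondrial loci behaved differently, with 0.00612% and 0.00611% in the WT libraries, 0.00705%, 0.00798% and 0.00708% in those of hot3-2 and 0.00615% and 0.00949% in those of hot3-3. The hot3-2 libraries lay above WT, and the hot3-3 libraries spanned from near the WT level to the highest value of all.

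**Figure D1:**
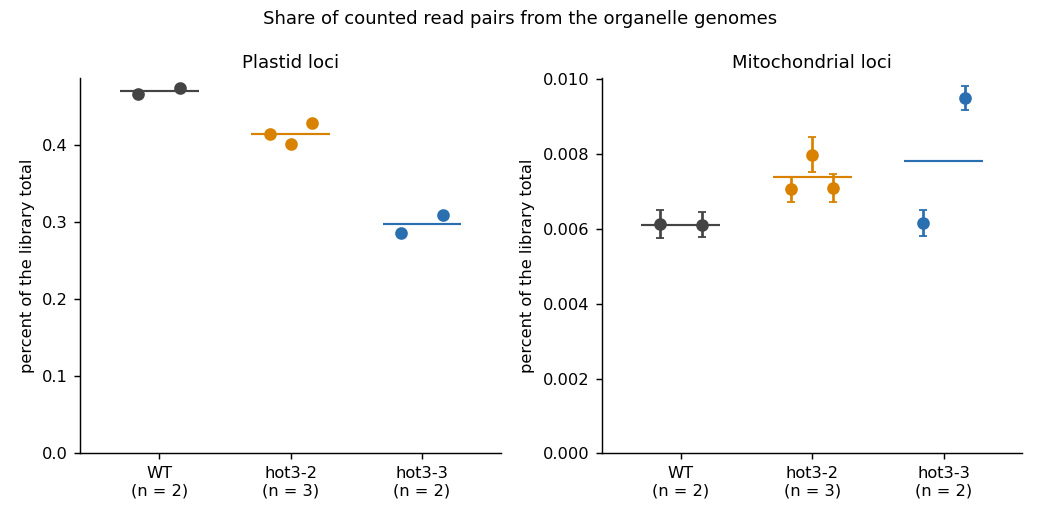
Percent of counted read pairs from the 88 plastid loci (left) and the 122 mitochondrial loci (right) in each library, with 95% Wilson intervals as bars, which are smaller than the points for the plastid, and group means as lines. The plastid share is 0.466% and 0.473% in WT and 0.285% and 0.308% in hot3-3, with the hot3-2 libraries between them.

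A few loci supplied most of the plastid counts. In WT, atpB and atpE for the beta and epsilon subunits of the ATP synthase held 20.2% and 12.9% of them. Together with rpl32, ycf1.2, rpl16, psbM, ndhK and rps3 they made up 72.5%. Per kb of coding length, the mean level over all libraries was highest for rpl32 (2234 CPM per kb), psbM (1599 CPM per kb) and atpE (1189 CPM per kb). psbA and rbcL, for the D1 protein of photosystem II and the large subunit of Rubisco, which are among the most abundant transcripts of green plastids, were at only 91.3 and 45.4 CPM per kb on the same scale.

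Of the 88 loci, 77 passed the filter on low counts and were tested, and 2 (both copies of ycf15) had no count in any library. The remaining loci without a test were copies of rpl23, ycf2, ndhB, rps7 and rps12, with 0 to 21 counts in a library. All of these lie in the inverted repeat, a stretch of 26264 bases that the plastid chromosome holds in both orientations. Pairs that map to both copies were not counted, so the levels of these loci are not known. The 12 loci wholly inside the repeat had 1018 counts over all libraries together and at most 134 in any library, and only 3 of them were tested. A further 4 loci, rps19, ndhF and both copies of ycf1, reach into the repeat and lost the pairs that fell there. Some adjacent loci overlap, such as atpB and atpE, psbD and psbC, and rps3 and rpl22. How pairs in the bases they share were counted is not given in the sources used here.

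To find single loci that changed, all 20795 genes with enough counts were fitted together with the quasi-likelihood test of edgeR, with p-values adjusted over all of them. The first threshold, that of the study, asked for an adjusted p below 0.01 together with a change of at least 2-fold, and the second for an adjusted p below 0.05 alone. In hot3-2, 2 plastid loci were lower at the first threshold, psbM and ndhC, where 3.88% of all genes tested were lower. None was higher, against 7.80% of all genes (12 were higher at an unadjusted p below 0.05, and DESeq2 also called 0). Without hot3-2 replicate 2, psbM and ndhC fell just short of the first threshold, with log2 fold changes of -0.999 and -0.989, and rpl20 was called higher. At the second threshold 10 loci were higher and 11 lower, or 13.0% and 14.3% of those tested, against 26.2% and 23.1% of all genes. The shares of plastid loci called were below those of all genes at both thresholds. Their median log2 fold change was 0.00, as it was over all genes.

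In hot3-3, 12 plastid loci were lower at the first threshold, or 15.6% of those tested, against 4.91% of all genes. They were psbM, psbK and psbI of photosystem II, psaJ and psaI of photosystem I, petA and petL of the cytochrome b6f complex, ndhC, ndhK and ndhJ of the NDH complex, rps14 of the ribosome and cemA. None was higher, against 9.63% of all genes (3 were higher at an unadjusted p below 0.05, and DESeq2 called 0). At the second threshold 34 were lower and 1 was higher, or 44.2% and 1.30%, against 24.1% and 27.0% of all genes. The median log2 fold change was -0.44 over the plastid loci and 0.01 over all genes. It was -0.25 without hot3-3 replicate 1 and -0.63 without hot3-3 replicate 2.

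The alleles were also compared directly, without WT. At the first threshold no plastid locus was higher or lower in hot3-3 than in hot3-2, where 0.856% and 0.351% of all genes were, and DESeq2 called 0 as well. At the second threshold 29 loci were lower in hot3-3, or 37.7% of those tested, and none was higher, against 4.46% and 4.86% of all genes. At an unadjusted p below 0.05, 40 were lower and 0 higher. The median log2 difference was -0.52 over the plastid loci. The count of 29 rested on single libraries, being 19 without hot3-2 replicate 1, 15 without hot3-2 replicate 3 and 19 without hot3-3 replicate 1.

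**Figure D2:**
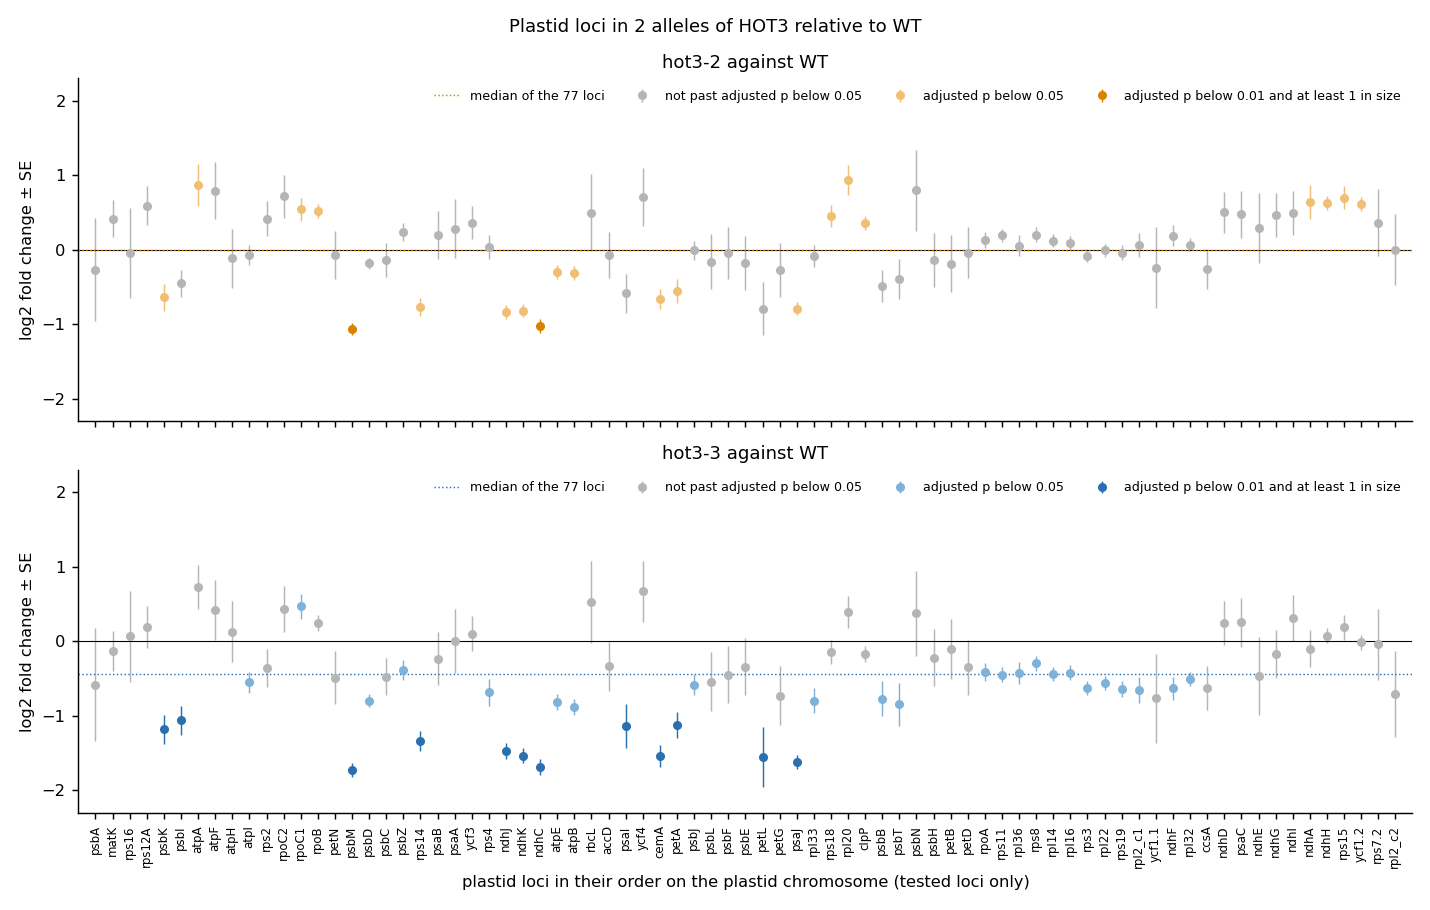
Log2 fold change against WT with its SE for the 77 tested plastid loci, in their order on the plastid chromosome, for hot3-2 (top) and hot3-3 (bottom). Points are coloured by the threshold passed in the quasi-likelihood test of edgeR and the dotted line is the median. The 2 loci past the first threshold in hot3-2 are among the 12 in hot3-3, and the hot3-3 points lie lower, with a median of -0.44.

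The 15 loci of the photosystem II class include those for the reaction centre, the inner antenna and small membrane subunits. Of them 13 were negative in hot3-2 and 14 in hot3-3, with medians of -0.18 and -0.58. psbM encodes a small subunit at the dimer interface and lies at 28707 to 28811 on the minus strand, within the large single copy region. Libraries of WT had 284 and 282 CPM of psbM, against 139.6, 122 and 144 CPM for hot3-2 and 82.9 and 88.0 CPM for hot3-3. Each group was separate from the others. hot3-2 was 2.09-fold lower than WT (log2 fold change -1.07 ± 0.08 SE, adjusted p = 1.3e-05, quasi-likelihood test). psbM thus had a log2 fold change of -1.73 ± 0.10 SE in hot3-3, or 3.31-fold lower (adjusted p = 2.41e-06, edgeR quasi-likelihood). psbK and psbI, for a pair of small subunits transcribed as neighbours, followed at lower levels. psbK had 8.49 and 6.36 CPM in the WT libraries, 4.56, 4.21 and 5.37 CPM in those of hot3-2 and 3.46 and 3.08 CPM in those of hot3-3. The groups again did not overlap, although the WT replicates differed more than for psbM. This made psbK 1.56-fold lower in hot3-2 (log2 fold change -0.64 ± 0.18 SE, adjusted p = 0.0145 by quasi-likelihood in edgeR). This call was lost without WT replicate 1 (adjusted p = 0.112). Against WT, hot3-3 was 2.27-fold lower for psbK, with a log2 fold change of -1.18 ± 0.20 SE (adjusted p = 0.00097, quasi-likelihood test in edgeR). It missed the first threshold without WT replicate 1. psbI was at 10.7 ± 1.95 CPM for WT, 7.70 ± 1.42 CPM for hot3-2 and 5.12 ± 0.38 CPM for hot3-3 (SD) and changed by -1.06 on the log2 scale in hot3-3 (adjusted p = 0.00175, quasi-likelihood test of edgeR). psbZ had the most positive mean change of the class among loci of at least 1 CPM. For psbZ, WT had 6.52 and 6.60 CPM, hot3-2 had 7.53, 7.64 and 8.14 CPM and hot3-3 had 5.05 and 5.02 CPM. Its libraries lay above WT in hot3-2 and below WT in hot3-3, with log2 fold changes of 0.24 and -0.38 (quasi-likelihood test of edgeR, adjusted p = 0.123 and 0.0379), and the second call was lost in DESeq2 and without any 1 of the WT or hot3-3 libraries or hot3-2 replicate 3.

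psbA, for the D1 protein that is replaced continually in the light, could not be placed. The level of psbA was 161 and 72.3 CPM for WT, then 45.4, 163 and 83.3 CPM for hot3-2 and 21.5 and 132 CPM for hot3-3. Libraries of the same genotype differed by up to 6.17-fold, and the groups overlapped throughout. The log2 fold change was -0.27 ± 0.69 in hot3-2 and -0.58 ± 0.76 in hot3-3 (SE; adjusted p = 0.773 and 0.547, quasi-likelihood test of edgeR), so a change of this locus was not detectable with these replicates.

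Of the 5 loci of photosystem I, 1 was lower in hot3-2 and 2 were lower in hot3-3 at the second threshold, against 23.1% and 24.1% of all genes. psaJ, for a small subunit at the rim of the complex, was the clearest. Libraries of WT had 45.1 and 41.9 CPM of psaJ, against 26.1, 24.1 and 25.1 CPM for hot3-2 and 15.1 and 13.3 CPM for hot3-3. Replicates lay close together and the 3 groups were well apart. hot3-2 was 1.73-fold lower than WT (log2 fold change -0.79 ± 0.08 SE, adjusted p = 7.66e-05, quasi-likelihood test). psaJ thus had a log2 fold change of -1.62 ± 0.10 SE in hot3-3, or 3.08-fold lower (adjusted p = 3.16e-06, edgeR quasi-likelihood). psaI, another small subunit, had few counts. psaI had 2.40 and 2.21 CPM in the WT libraries, 1.42, 1.57 and 1.62 CPM in those of hot3-2 and 0.722 and 1.28 CPM in those of hot3-3. It was lower in hot3-3 (log2 fold change -1.14 ± 0.29 SE, adjusted p = 0.00989, quasi-likelihood test of edgeR) and the call at the first threshold was lost without any 1 library other than hot3-3 replicate 2, and that at the second without hot3-3 replicate 1. The reaction centre genes psaA and psaB did not pass in either allele, and psaC, for the iron-sulphur subunit, was at 1.12 ± 0.155 CPM for WT, 1.58 ± 0.336 CPM for hot3-2 and 1.30 ± 0.341 CPM for hot3-3 (SD) with log2 fold changes of 0.47 and 0.26.

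The 6 loci of the cytochrome b6f complex, which links the photosystems, were all negative in both alleles, with medians of -0.23 and -0.61. petA, for cytochrome f, passed in both, at -0.55 ± 0.16 in hot3-2 and -1.12 ± 0.18 in hot3-3 on the log2 scale (SE; adjusted p = 0.0175 and 0.000685, quasi-likelihood test of edgeR). petL, for a small subunit, had 7 to 39 counts in a library. For petL, WT had 2.21 and 1.88 CPM, hot3-2 had 0.989, 1.14 and 1.41 CPM and hot3-3 had 0.337 and 0.942 CPM. Its hot3-3 libraries differed by 2.80-fold from each other but both lay below the rest. This made petL 2.94-fold lower in hot3-3 (log2 fold change -1.55 ± 0.40 SE, adjusted p = 0.00971 by quasi-likelihood in edgeR). The log2 fold change ran from -2.57 without hot3-3 replicate 2 to -1.11 without hot3-3 replicate 1, and in the fits with 1 library fewer it passed the first threshold only in the former. petB for cytochrome b6 and petN for another small subunit were at -0.19 and -0.07 in hot3-2 and -0.11 and -0.49 in hot3-3 on the log2 scale, and neither was called.

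The ATP synthase class held the loci with most counts, and its 6 members did not move together. The level of atpB was 858 and 1023 CPM for WT, then 726, 719.7 and 819 CPM for hot3-2 and 517 and 504 CPM for hot3-3. Both hot3-3 libraries lay far below the others, and the hot3-2 libraries lay just below WT. Against WT, hot3-2 was 1.25-fold lower for atpB, with a log2 fold change of -0.32 ± 0.09 SE (adjusted p = 0.0197, quasi-likelihood test in edgeR). hot3-3 was 1.84-fold lower than WT (log2 fold change -0.88 ± 0.10 SE, adjusted p = 0.00012, quasi-likelihood test). The first of these calls was lost without WT replicate 2 (adjusted p = 0.0551) and without hot3-2 replicate 2 (adjusted p = 0.0640) in the quasi-likelihood test of edgeR. atpE overlaps atpB by 4 bases and moved with it, at 598 ± 58.4 CPM for WT, 485 ± 42.2 CPM for hot3-2 and 339.9 ± 0.146 CPM for hot3-3 (SD), with log2 fold changes of -0.30 and -0.82, the first of which no longer passed without WT replicate 2 or without hot3-2 replicate 1 or 2. atpA, for the alpha subunit, lies in another unit and was higher in hot3-2. Libraries of WT had 5.90 and 5.34 CPM of atpA, against 10.2, 10.5 and 10.1 CPM for hot3-2 and 5.68 and 12.5 CPM for hot3-3. All hot3-2 libraries were above WT, whereas 1 hot3-3 library was within the WT range and the other above all hot3-2 libraries. atpA thus had a log2 fold change of 0.87 ± 0.28 SE in hot3-2, or 1.83-fold higher (adjusted p = 0.0298, edgeR quasi-likelihood). This call was lost when any WT or hot3-2 library was left out. The change in hot3-3 of 0.73 did not pass in the main fit (adjusted p = 0.0695, quasi-likelihood test of edgeR) but passed the second threshold in 3 alternative fits. Its unit was mixed, since atpI was at -0.07 in hot3-2 and lower in hot3-3 (-0.55, adjusted p = 0.00973), and neither atpH (-0.11 and 0.13) nor atpF (0.79 and 0.42) passed in either allele.

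The NDH complex carries cyclic electron flow around photosystem I, and a large part of it is encoded in the plastid. ndhC, ndhK and ndhJ lie next to each other, from 48677 to 50363 on the minus strand, and each was lower in both alleles. ndhK had 260.1 and 256 CPM in the WT libraries, 155, 129.8 and 153 CPM in those of hot3-2 and 87.0 and 90.9 CPM in those of hot3-3. The hot3-2 libraries lay well below WT and the hot3-3 libraries lower still. This made ndhK 1.77-fold lower in hot3-2 (log2 fold change -0.82 ± 0.09 SE, adjusted p = 7.69e-05 by quasi-likelihood in edgeR). Against WT, hot3-3 was 2.90-fold lower for ndhK, with a log2 fold change of -1.54 ± 0.10 SE (adjusted p = 4.42e-06, quasi-likelihood test in edgeR). For ndhC, WT had 37.1 and 38.2 CPM, hot3-2 had 18.0, 17.4 and 20.0 CPM and hot3-3 had 10.7 and 12.5 CPM. No library overlapped another group here either. hot3-2 was 2.04-fold lower than WT (log2 fold change -1.03 ± 0.10 SE, adjusted p = 3.34e-05, quasi-likelihood test). ndhC thus had a log2 fold change of -1.69 ± 0.11 SE in hot3-3, or 3.22-fold lower (adjusted p = 4.26e-06, edgeR quasi-likelihood). ndhJ was at 87.1 ± 3.72 CPM for WT, 48.8 ± 5.20 CPM for hot3-2 and 31.3 ± 0.0747 CPM for hot3-3 (SD) and changed by -0.83 and -1.48 on the log2 scale (adjusted p = 0.000104 and 7.14e-06, quasi-likelihood test of edgeR). The other 7 tested NDH loci lie in the small single copy region, apart from the end of ndhF, and gave other values. In hot3-2 all 7 were positive, and ndhA and ndhH, chosen here after their values were seen, passed the second threshold at 0.64 and 0.63. In hot3-3 ndhF was lower (-0.63) and the other 6 did not pass, and ndhI, the most positive of the class in hot3-3, was at 0.49 and 0.32 with 17 to 45 counts in a library.

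rbcL also varied widely between replicates. The level of rbcL was 65.8 and 36.3 CPM for WT, then 48.3, 101 and 67.3 CPM for hot3-2 and 29.4 and 116 CPM for hot3-3. Within hot3-3 the libraries differed by 3.95-fold. The log2 fold change was 0.50 ± 0.51 in hot3-2 and 0.53 ± 0.55 in hot3-3 (SE; adjusted p = 0.449 and 0.451, quasi-likelihood test of edgeR), and in hot3-3 its sign turned to -0.79 without replicate 2.

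**Figure D3:**
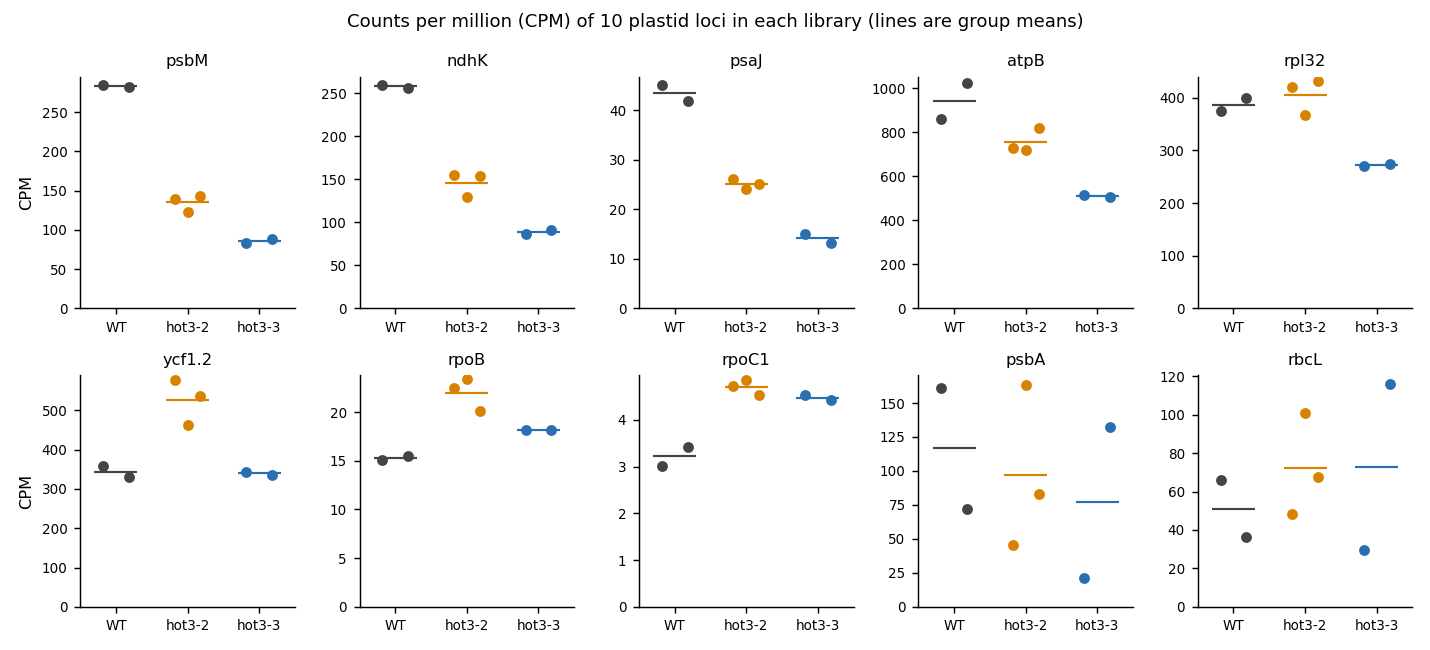
Level in CPM of 10 plastid loci in each library, with lines at the group means. The libraries of a genotype lie close together for psbM, ndhK, psaJ, rpoB and rpoC1, and are scattered for psbA (21.5 to 163 CPM) and rbcL (29.4 to 116 CPM).

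Of the 26 ribosomal protein loci 21 were tested. In hot3-2 their median was 0.07, with 3 higher (rpl20, rps15 and rps18) and 1 lower (rps14) at the second threshold, against 26.2% and 23.1% of all genes. In hot3-3 the median was -0.44, with 13 lower and 0 higher, against 24.1% and 27.0% of all genes. rps14, for a protein of the small subunit, stands behind psaB in the same transcription unit. Libraries of WT had 69.7 and 75.5 CPM of rps14, against 44.5, 35.6 and 47.9 CPM for hot3-2 and 27.1 and 30.1 CPM for hot3-3. The groups were separate. This made rps14 1.70-fold lower in hot3-2 (log2 fold change -0.76 ± 0.12 SE, adjusted p = 0.000684 by quasi-likelihood in edgeR). Against WT, hot3-3 was 2.53-fold lower for rps14, with a log2 fold change of -1.34 ± 0.13 SE (adjusted p = 4.15e-05, quasi-likelihood test in edgeR). rpl20, for a large subunit protein, was the most positive of the class in hot3-2. rpl20 had 1.78 and 1.88 CPM in the WT libraries, 3.74, 3.00 and 3.70 CPM in those of hot3-2 and 2.31 and 2.48 CPM in those of hot3-3. Every mutant library was above both WT libraries, by more in hot3-2. hot3-2 was 1.91-fold higher than WT (log2 fold change 0.93 ± 0.20 SE, adjusted p = 0.00402, quasi-likelihood test). In hot3-3 it was at 0.39 and did not pass (adjusted p = 0.159, quasi-likelihood test of edgeR). rpl32, the locus with the highest level per kb, differed between the alleles. For rpl32, WT had 375 and 399.7 CPM, hot3-2 had 419.7, 367 and 431 CPM and hot3-3 had 271 and 274 CPM. WT and hot3-2 overlapped, and both hot3-3 libraries lay below all others. Its log2 fold change was 0.07 ± 0.09 in hot3-2 and -0.51 ± 0.09 in hot3-3 (SE; adjusted p = 0.534 and 0.0017, quasi-likelihood test of edgeR).

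The 4 polymerase loci had the most positive median of any class in hot3-2, at 0.53, and stood at 0.34 in hot3-3. The level of rpoB was 15.1 and 15.5 CPM for WT, then 22.4, 23.4 and 20.1 CPM for hot3-2 and 18.2 and 18.2 CPM for hot3-3. The 3 groups were separate, with hot3-2 highest. rpoB thus had a log2 fold change of 0.52 ± 0.09 SE in hot3-2, or 1.43-fold higher (adjusted p = 0.00174, edgeR quasi-likelihood). In hot3-3 the log2 fold change of 0.25 ± 0.10 SE did not pass (adjusted p = 0.0688, quasi-likelihood test of edgeR). rpoC1, which follows rpoB in the same unit, was the only plastid locus called higher in hot3-3. Libraries of WT had 3.01 and 3.42 CPM of rpoC1, against 4.73, 4.86 and 4.54 CPM for hot3-2 and 4.52 and 4.42 CPM for hot3-3. All mutant libraries were above both WT libraries, and the alleles were close to each other. Against WT, hot3-2 was 1.46-fold higher for rpoC1, with a log2 fold change of 0.54 ± 0.16 SE (adjusted p = 0.017, quasi-likelihood test in edgeR). hot3-3 was 1.38-fold higher than WT (log2 fold change 0.47 ± 0.16 SE, adjusted p = 0.0383, quasi-likelihood test). The hot3-2 call was lost in DESeq2 (adjusted p = 0.0907) and without WT replicate 1 (adjusted p = 0.0744). The hot3-3 call did not pass in DESeq2 (adjusted p = 0.172), and leaving out any library other than hot3-2 replicate 2 also ended it. rpoC2 had 32 to 109 counts in a library, at 1.90 ± 0.0976 CPM for WT, 3.08 ± 0.701 CPM for hot3-2 and 2.49 ± 0.873 CPM for hot3-3 (SD), with log2 fold changes of 0.72 and 0.43 that did not pass. The hot3-2 change of rpoC2 passed the second threshold in 4 alternative fits. rpoA lies in the ribosomal protein operon, away from the others. rpoA had 44.6 and 47.1 CPM in the WT libraries, 56.7, 44.2 and 49.3 CPM in those of hot3-2 and 32.6 and 36.1 CPM in those of hot3-3. WT and hot3-2 overlapped and hot3-3 was lowest. rpoA thus had a log2 fold change of -0.42 ± 0.12 SE in hot3-3, or 1.33-fold lower (adjusted p = 0.0164, edgeR quasi-likelihood). This call was lost without hot3-3 replicate 1 (adjusted p = 0.0897).

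**Figure D4:**
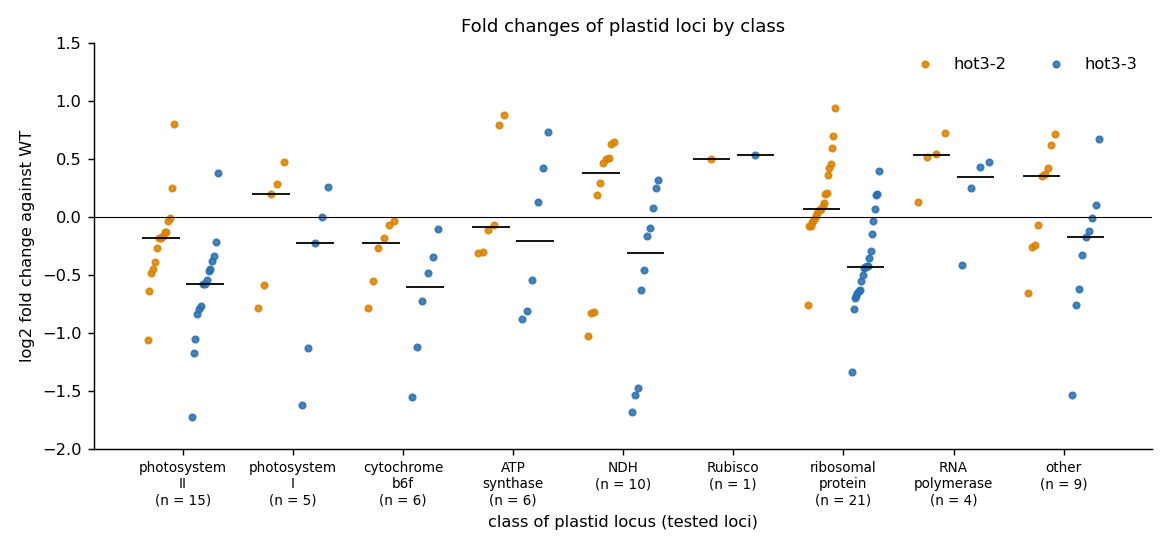
Log2 fold change against WT of each tested plastid locus by class, for hot3-2 and hot3-3, with the class median as a line and the number of tested loci under each name. Medians in hot3-3 lie below those in hot3-2 in every class except Rubisco, which is rbcL alone. The RNA polymerase loci have a median of 0.53 in hot3-2 and 0.34 in hot3-3.

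The remaining loci have varied roles, and ycf1.2, the long copy of ycf1 for a protein of the inner envelope membrane, dominated their counts. For ycf1.2, WT had 358 and 329 CPM, hot3-2 had 577, 464 and 536 CPM and hot3-3 had 344 and 336 CPM. All hot3-2 libraries were above those of WT and hot3-3, which overlapped. This made ycf1.2 1.53-fold higher in hot3-2 (log2 fold change 0.61 ± 0.10 SE, adjusted p = 0.000786 by quasi-likelihood in edgeR). In hot3-3 it was at -0.01 ± 0.11 (SE; adjusted p = 0.921). cemA, for an envelope membrane protein, had the largest difference between the alleles. The level of cemA was 11.9 and 13.5 CPM for WT, then 8.64, 7.07 and 8.35 CPM for hot3-2 and 3.99 and 4.68 CPM for hot3-3. The groups did not overlap. Against WT, hot3-2 was 1.58-fold lower for cemA, with a log2 fold change of -0.66 ± 0.13 SE (adjusted p = 0.00315, quasi-likelihood test in edgeR). hot3-3 was 2.91-fold lower than WT (log2 fold change -1.54 ± 0.15 SE, adjusted p = 4e-05, quasi-likelihood test). Directly compared, hot3-3 was lower than hot3-2, with a log2 difference of -0.88 ± 0.14 (SE, adjusted p = 0.00845, quasi-likelihood test of edgeR). Its neighbour ycf4, for a photosystem I assembly factor, had 11 to 59 counts in a library and was at 0.71 and 0.67 without passing.

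To see whether the classes kept their proportions, each was taken as a share of all plastid counts in a library. Loci of both photosystems together held 15.8% and 13.0% for WT, against 9.39%, 13.0% and 10.4% for hot3-2 and 8.44% and 13.4% for hot3-3. By counts the groups overlapped, since replicate 2 of each mutant reached the lower WT value. Per kb of coding length they did not, with 31.98% and 29.52% for WT against 20.08%, 21.77% and 20.64% for hot3-2. For hot3-3 the share per kb was 18.63% and 21.14%, so every mutant library lay below WT on that scale. Much of this class difference came from psbM, a locus of 105 bases that weighs heavily per kb. By counts, the mean share of psbM was 6.10% in WT, 3.19% in hot3-2 and 2.95% in hot3-3. That of all photosystem loci was 14.4%, 10.9% and 10.9%. The shares that follow are again by counts. Ribosomal protein loci held 31.4% and 31.5% for WT, against 37.5%, 33.6% and 34.4% for hot3-2 and 36.8% and 33.4% for hot3-3. Polymerase loci held 1.41% and 1.44% for WT, against 2.02%, 1.85% and 1.78% for hot3-2 and 2.08% and 2.02% for hot3-3. All mutant libraries were above WT in both of these classes. Counts of polymerase loci per 100 photosystem counts numbered 8.96 and 11.1 for WT, against 21.6, 14.3 and 17.2 for hot3-2 and 24.6 and 15.1 for hot3-3. The photosystem counts of this ratio include psbM, and the separation of the groups rests on that locus. NDH loci held 8.98% and 8.77% for WT, 5.67% to 6.17% for hot3-2 and 5.54% and 5.37% for hot3-3, without overlap. This fall came from 3 loci, as the mean share of ndhK was 5.56% in WT and 3.44% in hot3-2, that of ndhJ 1.88% and 1.15% and that of ndhC 0.811% and 0.435%. The other 7 tested NDH loci each held a larger mean share in hot3-2 than in WT, such as ndhH with 0.383% against 0.226%. Shares of a fixed total move against each other, and no p-value was computed for them.

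**Figure D5:**
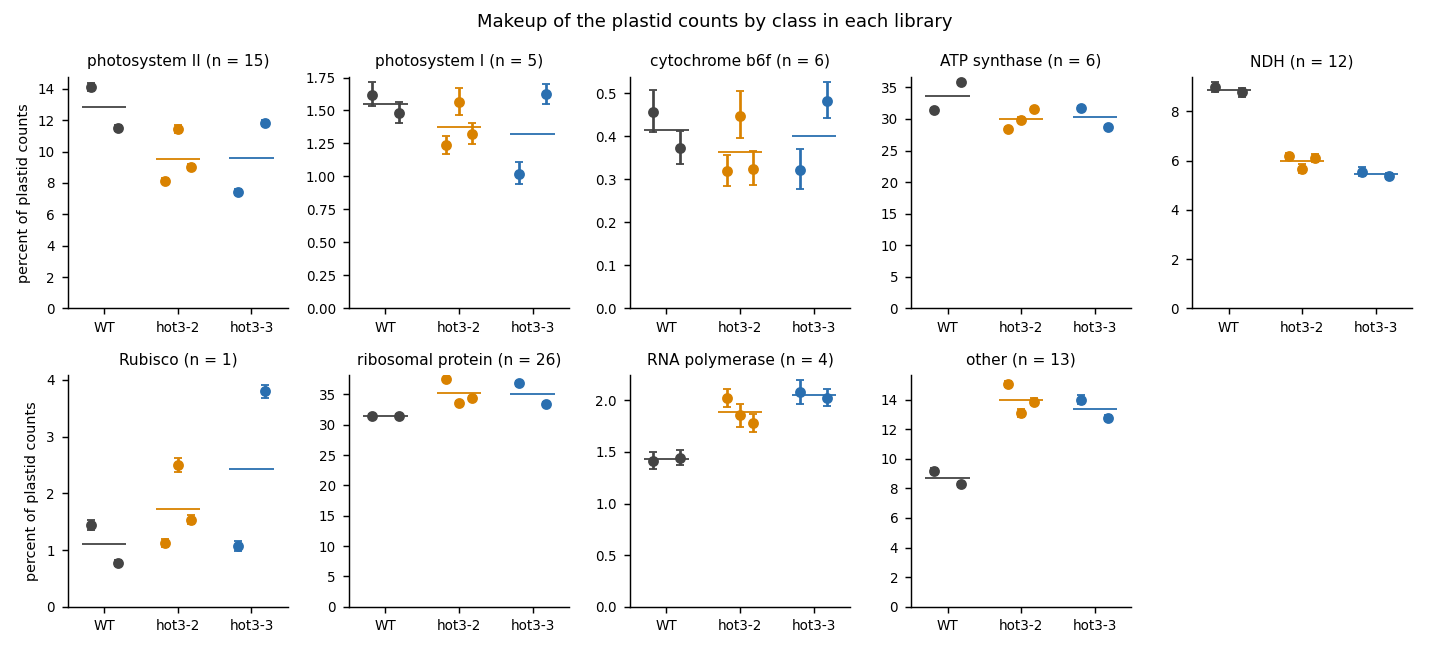
Percent of all plastid counts held by each class of loci in each library, with 95% Wilson intervals as bars, group means as lines and the number of loci in the title of each panel. The NDH class, through ndhK, ndhJ and ndhC, is lower and the ribosomal protein, RNA polymerase and other classes are higher in every mutant library than in WT. Photosystem II, in large part through psbM, is below WT in every hot3-2 library but overlaps WT in hot3-3. The photosystem I, ATP synthase, cytochrome b6f and Rubisco classes overlap between genotypes.

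As a share of the library, the polymerase loci were highest in hot3-2 and just below WT in hot3-3. They held 0.00658% and 0.00683% of all counts in WT and 0.00592% and 0.00624% in hot3-3, with 0.00743% to 0.00838% in hot3-2. The share of the ribosomal protein loci was 0.146% and 0.149% for WT, 0.135% to 0.155% for hot3-2 and 0.105% and 0.103% for hot3-3. For the photosystem loci it was 0.0734% and 0.0614% for WT, 0.0389% to 0.0521% for hot3-2 and 0.0241% and 0.0414% for hot3-3. The ribosomal share was thus at the WT level in hot3-2 and below it in hot3-3, while the photosystem share was below WT in all mutant libraries. The lower photosystem share came in large part from psbM. That locus had 4624 of 11748 and 5853 of 12671 photosystem counts in the WT libraries. In hot3-2 replicate 2, the mutant library nearest to WT, it had 1714 of 7343.

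The makeup of the plastid counts was close in the 2 alleles. Among the 32 tested loci with a mean of at least 10 CPM, the share of plastid counts taken by 29 differed by at most 0.25 on the log2 scale between hot3-3 and hot3-2. Between hot3-2 and WT this held for 13 loci and between hot3-3 and WT for 14. The median size of the log2 ratio of shares was 0.06 between the alleles, 0.33 between hot3-2 and WT and 0.26 between hot3-3 and WT. The comparisons with WT share the same 2 WT libraries.

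Loci of one transcription unit were set side by side, a grouping chosen after the values were seen and given here as a description. The 9 loci from rps19 to rpoA lay between -0.08 and 0.20 in hot3-2, where none was called. In hot3-3 they lay between -0.64 and -0.30, and 9 of 9 were lower at the second threshold, against 24.1% of all genes. The 3 loci rpoB, rpoC1 and rpoC2 lay between 0.52 and 0.72 in hot3-2 and between 0.25 and 0.47 in hot3-3. In other units the members parted. rps14 was at -0.76 in hot3-2 while psaA and psaB ahead of it were at 0.28 and 0.20. In the unit of psaJ, rpl33 and rps18, psaJ was at -0.79, rpl33 at -0.08 and rps18 at 0.45 in hot3-2, with calls in opposite directions at its ends.

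Scatter between replicates was itself uneven among the loci. Of 43 tested loci with a mean of at least 5 CPM, 6 were at least 2-fold higher in hot3-3 replicate 2 than in replicate 1, and 0 were as much lower. They were psbA (6.17-fold), rbcL (3.95-fold), psaA (3.38-fold), psbE (2.86-fold), psaB (2.61-fold) and atpA (2.20-fold). In hot3-2, 2 of the 43 were at least 2-fold apart between the extremes, psbA (3.60-fold) and rbcL (2.09-fold), and in WT 1 was, psbA (2.23-fold). The median ratio over the 43 loci was 1.11 for hot3-3 replicate 2 over 1 and 1.02 for WT replicate 1 over 2. Of these 6 loci only atpA was called, in hot3-2.

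The 12 loci that were lower in hot3-3 at the first threshold belong to 6 of the 9 classes. All 12 lie in the large single copy region, which holds 77.9% of the 77 tested loci. Their median coding length was 244.5 bases, against 483 bases over the tested loci. Of the 12, 5 are on the minus strand and 2, psbM and ndhC, are followed by the runs of 13 A shown above. Across the 77 tested loci the log2 fold change in hot3-2 had a Spearman correlation of 0.31 with coding length and 0.33 with the percent of A in the coding sequence, and in hot3-3 of 0.28 and 0.15. These are descriptions over loci that share libraries and transcription units.

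Nuclear genes that act on plastid transcripts were listed as 33 genes in 5 groups, all of which were tested. At the second threshold 4 were higher and 15 lower in hot3-2 and 2 were higher and 18 lower in hot3-3, with medians of -0.20 and -0.26. Over all genes 26.2% were higher and 23.1% lower in hot3-2, and 27.0% and 24.1% in hot3-3. Of 6 sigma factors, which guide the plastid-encoded polymerase, SIG2, SIG3 and SIG4 were lower in both alleles, SIG4 most, from a mean of 78.3 CPM in WT to 47.6 CPM in hot3-2 and 39.2 CPM in hot3-3 (log2 fold changes -0.71 and -0.996, adjusted p = 0.000628 and 0.000148 in the quasi-likelihood test). Of the nuclear-encoded polymerases, RPOTmp, which serves plastids and mitochondria, was higher in both, from 10.7 CPM to 18.8 and 24.4 CPM (log2 fold changes 0.80 and 1.18), whereas RPOTp, the plastid enzyme, did not pass (0.17 and 0.28). Among the 13 polymerase-associated proteins, 3 were higher and 3 lower in hot3-2 and 1 was higher and 4 lower in hot3-3, so that the hot3-2 shares were near those over all genes. PAP12 changed by -0.69 and -0.95, PAP2 by -0.55 and -0.56 and PAP8 by -0.34 and -0.52. Of those that rose in hot3-2, PAP6 was at 0.54 and PAP9 at 0.34, and PAP9 was also higher in hot3-3 (0.22).

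All 6 nuclear-encoded factors that protect or process particular plastid transcripts were lower at the second threshold in both alleles, against 23.1% and 24.1% of all genes. PGR3 changed by -0.70 and -0.94, CRP1 by -0.84 and -0.90 and HCF152 by -0.66 and -0.60 on the log2 scale. Of the 6 plastid nucleases, 3 were lower in hot3-2 and 5 in hot3-3. CSP41A and CSP41B, a pair of RNA-binding endonuclease-like proteins, passed the first threshold in both alleles, with log2 fold changes of -1.51 and -1.70 and of -1.08 and -1.40, and RNR1, an exoribonuclease, was at -0.55 and -0.67. Whether these levels bear on the plastid transcripts was not tested.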

How the data were processed

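The authors selected polyadenylated RNA, built directional libraries, trimmed read pairs with cutadapt (4.2 in the submitters' notes), mapped them to TAIR10 with STAR (2.7.10b) and counted uniquely and properly mapped pairs per gene with featureCounts (2.0.3). The strand setting and annotation release are not given in the sources used here. The deposited values are raw counts per gene, in one table per library, beside a gene length column used for levels per kb. Pairs that fit both copies of the inverted repeat were lost, so levels of those loci are not known.

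Genes were filtered with filterByExpr (minimum count of 10), scaled by TMM and fitted in edgeR 4.0.16 (R 4.3.3) over all 7 libraries with genotype as the factor. Contrasts were tested with the quasi-likelihood test and adjusted over 20795 genes by the Benjamini-Hochberg method. The SE was taken from the F statistic. CPM is the count over the TMM-scaled total. The authors' own software for differential expression is not given in the sources used here. The fit was tested on simulated data first. Alternatives were other scalings and filters, DESeq2 1.42.0, a fit of 2 groups, a replicate block, and leaving out each library. Coordinates and sequences are those of RefSeq TAIR10.1, to which 86 loci were matched by symbol and order, 81 with the same coding length as in the tables. The members, gene classes and nuclear lists were chosen with earlier results of these data known. Loci were named by a rule: rbcL, psbA and the rpo loci, up to 10 called loci per contrast, and the extremes of each class in level per kb and in change. The nuclear genes named were the 3 of smallest p against WT, in either allele, in each group. Other loci and nuclear genes named were chosen after their values were seen.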

Additional observations from a re-analysis of the deposited data

Results flagged for a closer look

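At an adjusted p below 0.05, 29 of the 77 tested plastid loci (37.7%) were lower in hot3-3 than in hot3-2, against 4.46% of all genes. The median log2 difference over the tested plastid loci was -0.52. Of the named loci, some of which were named for their calls, 13 were among those lower in this direct test (quasi-likelihood test of edgeR, adjusted p from 0.00161 to 0.0232). The log2 differences were -0.88 for cemA, -0.83 for psaJ, -0.72 for ndhK, -0.66 for psbM, -0.66 for ndhC, -0.64 for ndhJ, -0.63 for ycf1.2, -0.62 for psbZ, -0.58 for rps14, -0.57 for rpl32, -0.56 for atpB, -0.55 for rpoA and -0.51 for atpE. ycf1.2 was above WT in hot3-2 and at the WT level in hot3-3, and the psbZ libraries lay above WT in hot3-2 and below it in hot3-3. rpl32 and rpoA overlapped WT in hot3-2 and lay below it in hot3-3. By contrast, cemA, psaJ, ndhK, psbM and ndhC were below WT in both alleles and further below it in hot3-3. In share of plastid counts, the log2 ratio of hot3-3 over hot3-2 ran from -0.34 (cemA) to 0.04 (atpE) among these 13 loci, with ycf1.2 at -0.08. The groups compared had 3 and 2 libraries. The difference of atpB was no longer called without hot3-2 replicate 3 or hot3-3 replicate 2, that of atpE without hot3-2 replicate 3 or either hot3-3 library, and those of psbZ, rps14 and rpoA without hot3-2 replicate 1 or 3 or either hot3-3 library, with adjusted p from 0.0505 to 0.109. With the replicate number as a block these 5 loci also lost the call (adjusted p = 0.0543 for atpB, 0.0710 for atpE, 0.0857 for psbZ, 0.0954 for rps14 and 0.0658 for rpoA). The other 8 kept their call when any 1 library was left out and with the block.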

How the results depend on the processing

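All 21 loci called at an adjusted p below 0.05 in hot3-2, all 35 in hot3-3 and all 29 between the alleles kept their direction in every alternative run. The number called was 15 to 25, 29 to 38 and 15 to 32 when 1 library was left out. At the stricter threshold it was 1 or 2 in hot3-2, 9 to 16 in hot3-3 and 0 between the alleles. Without hot3-2 replicate 2 the 1 locus called in hot3-2 was rpl20, since psbM and ndhC came to -0.999 and -0.989 on the log2 scale. The replicate numbers were not shown to mark shared cultures or days (same-numbered libraries deviated together with r of 0.03 to 0.15 over all genes, while over the plastid loci r was 0.60 and 0.61 between hot3-2 and hot3-3 and -0.33 to -0.26 between WT and either allele), and a fit with the replicate number as a block called 17, 31 and 15 loci. The median of the plastid loci in hot3-2 was -0.0493 with total counts, 0.0457 with the block and 0.00682 to 0.12 with a library left out. In hot3-3 it was -0.63 to -0.25 and between the alleles -0.70 to -0.43. As percent of WT, the plastid share of hot3-2 was 83.3% without loci wholly or partly in the inverted repeat, which drops ycf1.2, and 86.8% to 89.6% with a library left out. The ribosomal share of plastid counts was 125% and 126% per kb (112% and 112% by counts) and the polymerase share of hot3-3 was 139% without atpB (144% with it). The cause of these shifts was not tested.

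Changes of sign touched only values that were not called in the main fit. Of these, psbA, rbcL and ycf4 in hot3-3 and atpA between the alleles each passed the second threshold in 1 alternative fit. With a library left out, log2 fold changes in hot3-2 ran from -0.86 to 0.42 for psbA, -0.41 to 0.26 for petN and -0.52 to 0.0318 for petB. In hot3-3 they ran from -0.79 to 1.19 for rbcL, -2.44 to 0.19 for psbA, -0.0116 to 0.72 for rpoC2, -0.0987 to 0.0437 for ycf1.2 (0.0019 with total counts), -0.0639 to 1.06 for ycf4, -0.86 to 0.32 for petB and -0.0688 to 0.47 for psaC. Between the alleles they ran from -1.29 to 0.69 for rbcL (-0.12 with the block), -2.17 to 0.45 for psbA, -0.77 to 0.35 for ycf4 (0.0210 with total counts), -0.86 to 0.28 for atpA, -0.67 to 0.51 for petB (-0.0659 with the block) and -0.38 to 0.0470 for ndhI. Loci with under about 100 counts in a library, such as petL, psaI, rpoC2, ycf4 and ndhI, are limited by depth, and psbA and rbcL by the spread of replicates.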
